A study of Mus musculus with 12 samples.

Results

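The genes of cholesterol synthesis, sterol transport and SREBP control were followed through 12 RNA-seq libraries of mouse pluripotent stem cells. Members were the 33 genes whose symbol stood in a fixed list, out of 57180 genes in the deposited tables, and all 33 were measured and passed the filter on low counts. They comprise 7 genes of the mevalonate pathway, 12 genes from squalene to cholesterol, 5 genes of SREBP control, 6 genes of sterol transport, storage and efflux, the nuclear receptor gene *Nr1h2* with the ubiquitin ligase gene *Mylip*, and *Lpin1*.

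All libraries came from the E14 DOX-CRISPRi line, a chosen clone of E14 embryonic stem cells (ESCs) in which doxycycline (DOX) switches on a repressor that guide RNAs bring to a start site. In the Neg line the guides are scrambled, and in the 3xKD line they target the starts of *Pcx*, *Me1* and *Me2*, the genes of pyruvate carboxylase, cytosolic malic enzyme and a mitochondrial malic enzyme. Each line was sequenced as ESCs, kept in N2B27 medium with 2iLIF, and as epiblast-like cells (EpiLCs) at day 2 of induction in FAX medium (Activin A, Fgf2 and XAV939), with 3 libraries in each of the 4 groups. All 4 groups carried the repressor and the guide vector, were grown under low oxygen and antibiotic selection, and received DOX as the study describes it, an agent that the labels do not name. The study asked how pyruvate cycling bears on the exit from naive pluripotency. Libraries held 11221023 to 19652197 estimated counts, and both extremes were Neg ESCs. The study states in general that its experiments had at least biological triplicates. Nothing in the sources ties the libraries of a group to separate cultures, so the p-values measure only the spread between these libraries, which may be technical.

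The targeted genes were lower in the 3xKD line. *Pcx* stood at 36.2, 36.7 and 35.7 CPM (counts scaled to the library size after TMM scaling) in Neg ESCs and at 16.1, 16.3 and 16.8 in 3xKD ESCs, and at 46.7, 49.4 and 56.9 in Neg EpiLCs and 24.5, 23.6 and 25.6 in 3xKD EpiLCs. In ESCs *Pcx*, *Me1* and *Me2* had log2 fold changes of -1.14, -0.89 and -0.95 for 3xKD against Neg, and in EpiLCs of -1.05, -1.05 and -0.98. Among the labels, the cell-type field names a single state per line and the titles name both, and the titles were followed. The 11 naive markers summed to between 3225 and 4848 CPM in libraries titled ESCs and between 468.5 and 545 CPM in those titled EpiLCs, while the 10 formative markers summed to between 424 and 504.8 CPM and between 2196 and 4232 CPM. All 11 naive markers were lower in EpiLCs than in ESCs of both lines. Genes of chromosome 16 were shifted in the 3xKD line, where 454 genes had a median shift on the log2 scale of 0.298 (ESCs) and 0.3 (EpiLCs), and no member lies on that chromosome. Neg and 3xKD are separate lines, and by the study's account all libraries received DOX. Other differences between the lines, this shift among them, therefore cannot be told apart from the knockdown in the members' values. The 3xKD effect below means the difference between the lines.

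Cells build cholesterol from acetyl-CoA. The mevalonate pathway yields the isoprenoid farnesyl diphosphate, of which squalene, lanosterol and finally cholesterol are made in the endoplasmic reticulum. When sterols in that membrane fall, SCAP escorts the SREBP precursors, encoded by *Srebf1* and *Srebf2*, to the Golgi, where proteases release the factors that switch on genes of synthesis and uptake. When sterols are plentiful, INSIG proteins hold SCAP back, and oxysterols activate the LXR receptors, which raise genes of efflux.

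Most members that passed the test in the 3xKD line were higher than in Neg cells, in ESCs above all. In 3xKD against Neg ESCs, 15 of 33 members rose and none fell, with calls limited to an adjusted p below 0.01 and a log2 fold change beyond 0.58 in either direction. Of all 25453 genes tested, 8.51% were called higher and 6.77% lower in that comparison. In EpiLCs, 8 members rose and 1, *Abca1*, fell, against 7.88% of all genes called higher and 5.35% lower. Of these, 7 members rose in both states, 8 passed in ESCs alone and 1, *Npc2*, passed upward in EpiLCs alone. With the adjusted p alone, 21 members were higher and 3 lower in ESCs, against 15.6% and 16.0% of all genes. The same limit gave 21 higher and 4 lower in EpiLCs, against 14.3% and 15.6%. The median log2 fold change over the 33 members was 0.55 in ESCs and 0.31 in EpiLCs, while that over all genes tested was 0.026 and 0.032. Adjusted p-values come from the quasi-likelihood test of edgeR and were adjusted over all genes tested (Benjamini-Hochberg), levels are CPM after TMM scaling, and log2 fold changes are given ± their standard error (SE).

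In the mevalonate pathway, 4 of 7 genes rose in 3xKD ESCs and 1 rose in 3xKD EpiLCs, with medians of 0.63 and 0.30. *Hmgcs1*, which makes HMG-CoA, stood at 322, 332 and 303 CPM in Neg ESCs and 493, 494 and 493 in 3xKD ESCs, and at 356, 377 and 376 in Neg EpiLCs and 463, 447 and 457 in 3xKD EpiLCs. The 3xKD libraries lay above the Neg libraries in both states, by a log2 fold change of 0.63 ± 0.036 in ESCs (adjusted p = 7.7e-10) and 0.30 ± 0.036 in EpiLCs (adjusted p = 3.9e-06), the latter under the fold limit. *Pmvk*, which adds the second phosphate to mevalonate, measured 10.2, 13.6 and 10.3 CPM in Neg ESCs, 20.8, 19.1 and 19.1 in 3xKD ESCs, 12.01, 10.3 and 10.9 in Neg EpiLCs and 16.3, 15.98 and 16.9 in 3xKD EpiLCs. It rose by 0.79 ± 0.10 in ESCs (adjusted p = 6.2e-06) and had 0.56 ± 0.10 in EpiLCs (adjusted p = 0.00025), where leaving out Neg EpiLCs replicate 1 or 3xKD EpiLCs replicate 2 took it past the fold limit (0.63 and 0.58).

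*Mvd*, the decarboxylase that forms isopentenyl diphosphate, measured 33.2, 36.3 and 32.9 CPM in Neg ESCs and 61.2, 61.5 and 64.1 in 3xKD ESCs, and 37.1, 36.1 and 33.8 and 55.1, 54.3 and 53.2 in Neg and 3xKD EpiLCs. It was the mevalonate gene that rose in both states, by 0.87 ± 0.051 in ESCs (adjusted p = 8.9e-10) and 0.60 ± 0.051 in EpiLCs (adjusted p = 6.4e-08), and the EpiLC value was 0.57 and not called without Neg EpiLCs replicate 3. *Fdps*, which makes farnesyl diphosphate, measured 120.2, 125 and 120.4 CPM in Neg ESCs, 198, 210.4 and 201 in 3xKD ESCs, 137, 135 and 130.2 in Neg EpiLCs and 187, 190.0 and 190.2 in 3xKD EpiLCs. Its groups were apart in both states, with log2 fold changes of 0.74 ± 0.034 (adjusted p = 7e-11) and 0.50 ± 0.034 (adjusted p = 6e-09), and the first alone passed the fold limit.

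The other 3 mevalonate genes did not pass. *Acat2*, the cytosolic thiolase at the entry of the pathway, had values of 0.38 in ESCs and 0.28 in EpiLCs, with every 3xKD library above every Neg library. *Mvk*, mevalonate kinase, had -0.15 and -0.38, and *Idi1*, the isomerase of isopentenyl diphosphate, 0.083 and -0.40. For *Mvk* and *Idi1* the Neg and 3xKD libraries overlapped in ESCs, and in EpiLCs all 3 Neg libraries were the higher ones.

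From squalene to cholesterol, 6 of 12 genes rose in 3xKD ESCs and 3 in 3xKD EpiLCs, with medians of 0.58 and 0.41. The largest value of any member was that of *Dhcr7*, the last enzyme of the Kandutsch-Russell branch. It measured 55.2, 57.6 and 51.5 CPM in Neg ESCs and 141, 146 and 142 in 3xKD ESCs, a 2.62-fold rise, and 66.8, 70.9 and 67.4 in Neg EpiLCs and 130.5, 127 and 124 in 3xKD EpiLCs, a 1.86-fold rise. The lowest 3xKD library lay far above the highest Neg library in both states, with log2 fold changes of 1.39 ± 0.043 (adjusted p = 1.4e-12) and 0.89 ± 0.043 (adjusted p = 9.9e-11). With offsets for transcript length the EpiLC value was 0.72 and was no longer called (adjusted p = 0.021).

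*Msmo1*, the sterol C4-methyl oxidase, measured 81.5, 82.8 and 75.8 CPM in Neg ESCs, 172, 173 and 171 in 3xKD ESCs, 78.3, 86.7 and 74.3 in Neg EpiLCs and 138, 133 and 132 in 3xKD EpiLCs. Its rise was 2.15-fold in ESCs and 1.69-fold in EpiLCs (log2 1.103 ± 0.049 and 0.75 ± 0.049, adjusted p = 4.1e-11 and 3.2e-09), and no 3xKD library reached down to a Neg library. *Nsdhl*, the dehydrogenase of the same demethylation, measured 32.4, 32.1 and 30.6 CPM in Neg ESCs, 55.0, 53.8 and 52.4 in 3xKD ESCs, 29.4, 25.7 and 30.6 in Neg EpiLCs and 37.6, 38.9 and 36.8 in 3xKD EpiLCs. It rose by 0.76 ± 0.059 in ESCs (adjusted p = 2.1e-08), and in EpiLCs its value of 0.40 ± 0.060 was under the fold limit although its groups did not overlap.

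*Cyp51*, lanosterol 14-alpha-demethylase, measured 96.2, 93.8 and 84.0 CPM in Neg ESCs, 163, 156 and 163 in 3xKD ESCs, 113, 107 and 113 in Neg EpiLCs and 151, 147 and 145 in 3xKD EpiLCs. It rose by 0.82 ± 0.045 in ESCs (adjusted p = 4.7e-10), and its EpiLC value was 0.41 ± 0.045, or 0.63 and called with offsets for transcript length. The next step, reduction of the C14 double bond, is shared by the products of *Tm7sf2* and *Lbr*, which differ widely in level. *Tm7sf2* measured 8.51, 7.36 and 7.49 CPM in Neg ESCs and 14.9, 13.3 and 14.2 in 3xKD ESCs, and 4.25, 5.03 and 4.11 and 8.56, 9.14 and 8.49 in Neg and 3xKD EpiLCs. *Lbr*, whose protein is also the lamin B receptor, measured 167, 174 and 174 CPM in Neg ESCs, 269, 263 and 259 in 3xKD ESCs, 201, 197 and 200.5 in Neg EpiLCs and 274, 271 and 266 in 3xKD EpiLCs. *Tm7sf2* rose in both states, by 0.87 ± 0.10 and 0.97 ± 0.11 (adjusted p = 2.4e-06 and 2e-06), whereas *Lbr* rose by 0.62 ± 0.031 in ESCs (adjusted p = 1.4e-10) and had 0.44 ± 0.031 in EpiLCs. Summed per gene, the deposited TPM gave *Lbr* a mean of 60.8 ± 9.3 (SD, n = 3) in Neg ESCs against 5.80 ± 0.87 for *Tm7sf2*.

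Of the 6 members of this stretch that did not pass in either state, *Lss*, lanosterol synthase, came nearest in ESCs with 0.55 ± 0.039 (adjusted p = 9.1e-09), and it passed the fold limit without Neg ESCs replicate 2 (0.60), 3xKD ESCs replicate 1 (0.59) or Neg EpiLCs replicate 1 (0.58). Its EpiLC value was 0.15. *Fdft1*, squalene synthase, had 0.30 in ESCs and 0.0072 in EpiLCs. *Sqle*, squalene epoxidase, a controlled step of the pathway, had -0.036 and -0.28, with every 3xKD library under every Neg library in EpiLCs. *Hsd17b7* had 0.11 and -0.30, *Ebp* 0.11 and 0.42, and *Sc5d* 0.072 and -0.16, for the ketoreductase, the sterol isomerase and the C5-desaturase of the late steps. In ESCs the Neg and 3xKD libraries overlapped for *Sqle*, *Hsd17b7*, *Ebp* and *Sc5d*.

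**Figure D1:**
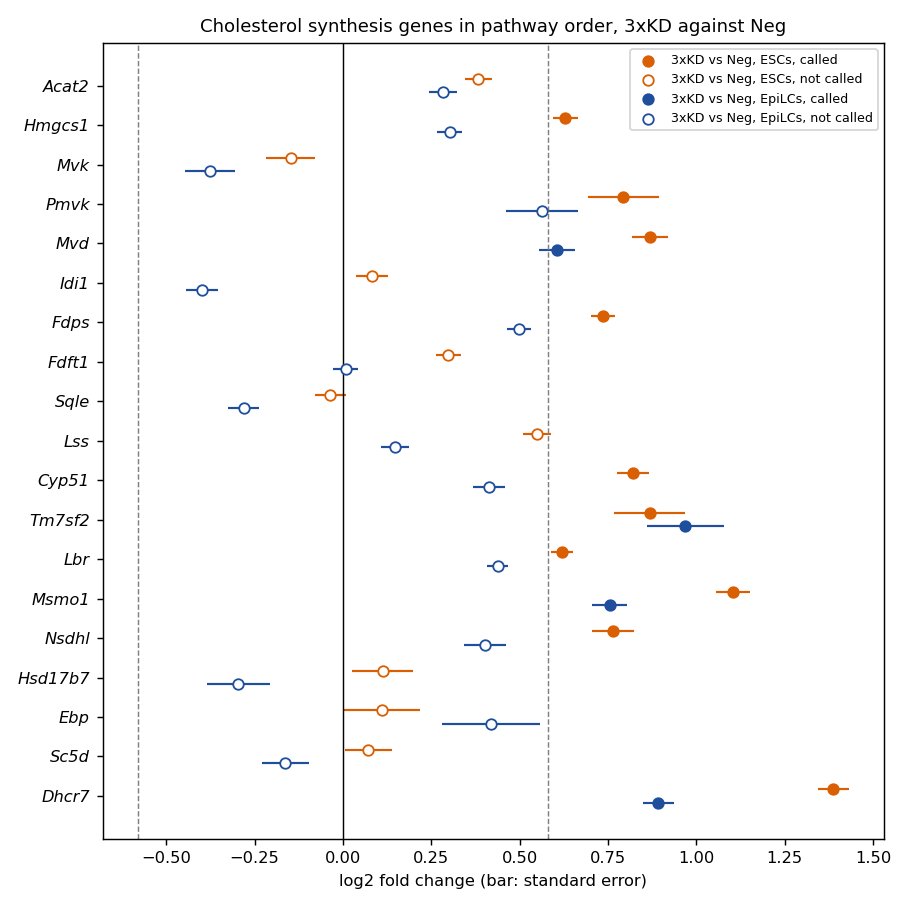
Log2 fold change (x axis, bars are standard errors) of 3xKD against Neg for the 19 synthesis genes (y axis, in pathway order from top to bottom) in ESCs (orange) and EpiLCs (blue), with filled points for called genes and dashed lines at the fold limit of 0.58. The 10 genes called in ESCs lie between 0.62 (*Lbr*) and 1.39 (*Dhcr7*), and the 4 called in EpiLCs between 0.60 (*Mvd*) and 0.97 (*Tm7sf2*).

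SREBP2 binds sterol regulatory elements next to sites of NF-Y and Sp1, so the 250 bases before each member's annotated start (Ensembl canonical transcript, GRCm39 with GENCODE vM39) were searched on both strands for TCACNCCAC (SRE), CCAAT (NF-Y), GGGCGG (Sp1) and CACGTG (E-box). CCAAT was in the windows of 20 of 33 members and 13 of 19 synthesis genes, and in 35.0% of 25283 windows of tested genes. GGGCGG was in 21 of 33 and 11 of 19, and in 36.3% of all windows. CACGTG was in 5 of 33 and 2 of 19, against 6.27%, and TCACNCCAC was in 1 member, *Hmgcs1*, against 1.04%. The windows of *Dhcr7*, *Mvd* and *Lbr*, which rose, held none of these letters. The *Dhcr7* window (chr7:143383115-143383364, plus strand) lies inside the gene, which begins at 143376740, and all its 250 bases are in annotated exons. That of *Lbr* also lies inside its gene, with 200 bases in exons, and that of *Mvd* has 210 in exons. Other starts of these genes were not searched, so the absence holds for these windows alone. A match is a description of the window alone.

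Windows of the called synthesis genes *Msmo1* and *Pmvk* are shown as examples outside annotated exons, in capitals where a motif matched, together with the SRE match of *Hmgcs1*, all chosen after the matches were seen. The *Msmo1* stretch is chr8:65186831-65187076 on the minus strand, bases 250 to 5 before the start, with CCAAT at 161 and the Sp1 letters on the other strand at 57. The *Pmvk* window is chr3:89366175-89366424 on the plus strand, with GGGCGG at 21. This window also lies inside its gene, which begins at 89361758, and other starts of *Pmvk* were not searched. The *Hmgcs1* stretch is chr13:120151740-120151768 on the plus strand, with the SRE letters 232 bases before the start.
Msmo1: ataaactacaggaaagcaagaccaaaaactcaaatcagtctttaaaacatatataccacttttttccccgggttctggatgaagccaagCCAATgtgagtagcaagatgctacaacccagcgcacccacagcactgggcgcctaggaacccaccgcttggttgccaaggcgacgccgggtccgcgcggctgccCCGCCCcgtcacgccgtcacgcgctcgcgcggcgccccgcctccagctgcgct
Pmvk: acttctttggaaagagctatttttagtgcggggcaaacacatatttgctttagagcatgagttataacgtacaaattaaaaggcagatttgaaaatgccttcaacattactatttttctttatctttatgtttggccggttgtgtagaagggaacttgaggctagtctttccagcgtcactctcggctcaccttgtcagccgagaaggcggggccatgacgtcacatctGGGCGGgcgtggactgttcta
Hmgcs1: cgtcaccgtcTCACCCCACttcccaggtc
*Msmo1* and *Pmvk* carry their Sp1 letters 57 and 21 bases before their starts. Both genes and *Hmgcs1* rose in 3xKD ESCs.

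Among the 5 SREBP control genes, *Insig1* alone passed, and it did so in both states. *Insig1*, itself a target of the SREBPs and a brake on them, stood at 205, 204 and 187 CPM in Neg ESCs, 377, 362 and 376 in 3xKD ESCs, 202, 212 and 208 in Neg EpiLCs and 337, 349 and 322 in 3xKD EpiLCs. It rose 1.87-fold in ESCs and 1.62-fold in EpiLCs (log2 0.90 ± 0.041 and 0.70 ± 0.041, adjusted p = 5.7e-11 and 1.1e-09). *Insig2*, its paralog, measured 20.1, 20.8 and 22.2 CPM in Neg ESCs, 21.7, 19.0 and 19.3 in 3xKD ESCs, 17.1, 15.2 and 15.1 in Neg EpiLCs and 14.9, 13.9 and 15.6 in 3xKD EpiLCs. Its Neg and 3xKD libraries overlapped in both states, with log2 fold changes of -0.075 ± 0.078 and -0.10 ± 0.081 (adjusted p = 0.5 and 0.4).

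*Srebf2*, which encodes the SREBP of cholesterol synthesis, stood at 505, 534 and 505 CPM in Neg ESCs, 699.8, 711 and 705 in 3xKD ESCs, 562, 570.5 and 569.5 in Neg EpiLCs and 667, 648 and 622 in 3xKD EpiLCs. *Srebf1*, whose main products steer fatty acid synthesis, stood at 116, 121 and 121, 179.9, 176 and 177, 112, 117 and 115 and 146, 141 and 139.6 CPM in the same order of groups. For both genes every 3xKD library lay above every Neg library of its state, by less than the fold limit. The log2 fold changes were 0.46 ± 0.034 and 0.19 ± 0.034 for *Srebf2* (adjusted p = 1.3e-08 and 0.00025), and 0.57 ± 0.033 and 0.31 ± 0.033 for *Srebf1* (adjusted p = 7.3e-10 and 1.1e-06). *Srebf1* in ESCs lay so near the limit that it passed at 0.59 with upper-quartile factors and at 0.72 with offsets for transcript length, and without Neg ESCs replicate 2 or 3, 3xKD ESCs replicate 1, any 1 Neg EpiLC library or 3xKD EpiLCs replicate 3 (between 0.58 and 0.61). In EpiLCs those offsets gave 0.62, which was called.

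*Scap*, the escort of the SREBPs, stood at 79.0, 89.9 and 80.7 CPM in Neg ESCs, 65.1, 61.8 and 68.4 in 3xKD ESCs, 58.7, 65.6 and 60.2 in Neg EpiLCs and 60.5, 58.2 and 54.6 in 3xKD EpiLCs. It was the one control gene with all 3xKD ESC libraries under all Neg ESC libraries, at -0.35 ± 0.059 (adjusted p = 0.00012), and its groups overlapped in EpiLCs (-0.09 ± 0.060, adjusted p = 0.28). With offsets for transcript length its values were 0.028 in ESCs and 0.61 in EpiLCs, the latter called, so its direction depends on this setting.

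*Srebf1*, *Insig2* and *Lpin1* have transcripts with starts far apart. The share of *Srebf1* TPM from the transcript starting at 60111468 on chromosome 11 (GRCm39, minus strand) had means of 32.8%, 27%, 36.9% and 26.7% in Neg ESCs, 3xKD ESCs, Neg EpiLCs and 3xKD EpiLCs, and the Neg EpiLC libraries alone ran from 25.8% to 49.9%. For *Insig2*, the transcripts starting between 121260279 and 121260400 on chromosome 1 were listed at 0 in every library. The *Lpin1* transcripts starting between 16639721 and 16639774 on chromosome 12 held 39.7% of its TPM in Neg ESCs, with libraries from 29.6% to 45.4%, and 56.1% in 3xKD ESCs, from 53.9% to 59.8%. The *Lpin1* transcript with the outermost start ran from 0% to 54.5% among the Neg ESC libraries, so these shares are uncertain and no test was made of them.

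In sterol transport, storage and efflux, 3 of 6 genes rose in 3xKD ESCs, while 3 rose and 1 fell in 3xKD EpiLCs. *Stard4*, a soluble sterol carrier, stood at 119.7, 127 and 116 CPM in Neg ESCs, 213, 217 and 222 in 3xKD ESCs, 118, 118 and 117 in Neg EpiLCs and 178, 178 and 172 in 3xKD EpiLCs. It rose by 0.85 ± 0.036 and 0.58 ± 0.036 (adjusted p = 2.4e-11 and 1.8e-09). The EpiLC value stood at the fold limit, and dropped under it (between 0.57 and 0.58) without Neg ESCs replicate 2, Neg EpiLCs replicate 3, 3xKD EpiLCs replicate 1 or 3xKD EpiLCs replicate 2 and with only both EpiLC groups fitted (0.57), and stood at 0.43 with offsets for transcript length. *Soat1*, which esterifies cholesterol for storage, stood at 30.2, 28.1 and 27.0 CPM in Neg ESCs and 46.1, 43.5 and 46.3 in 3xKD ESCs, and at 65.7, 62.3 and 60.9 and 64.3, 65.0 and 59.2 in Neg and 3xKD EpiLCs. It rose in ESCs by 0.68 ± 0.057 (adjusted p = 5.8e-08, or 0.024 with offsets for transcript length), and the EpiLC libraries of both lines overlapped (-0.0031).

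The efflux transporters moved apart. *Abcg1* stood at 6.56, 8.39 and 7.39 CPM in Neg ESCs, 15.0, 11.6 and 12.7 in 3xKD ESCs, 13.8, 11.5 and 13.7 in Neg EpiLCs and 22.4, 20.7 and 20.0 in 3xKD EpiLCs. *Abca1* stood at 31.7, 30.2 and 32.4 CPM in Neg ESCs, 22.0, 20.8 and 21.3 in 3xKD ESCs, 23.8, 25.1 and 25.7 in Neg EpiLCs and 13.2, 13.9 and 15.9 in 3xKD EpiLCs. *Abcg1* rose by 0.81 ± 0.12 and 0.70 ± 0.11 (adjusted p = 2.8e-05 and 5.2e-05), the EpiLC call being lost with offsets for transcript length (adjusted p = 0.18). *Abca1* fell by 0.79 in EpiLCs (SE 0.072, adjusted p = 1.5e-07) and had -0.56 ± 0.069 in ESCs, just under the fold limit (adjusted p = 4.5e-06). No Neg and 3xKD libraries of a state overlapped for either gene. Both are known targets of LXR.

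*Npc2*, which hands cholesterol out of the lysosome, stood at 169, 162 and 165 CPM in Neg ESCs, 192, 195 and 188 in 3xKD ESCs, 55.6, 52.3 and 54.3 in Neg EpiLCs and 82.3, 82.1 and 89.8 in 3xKD EpiLCs. It rose in EpiLCs by 0.65 ± 0.042 (adjusted p = 2.9e-09) and had 0.22 ± 0.038 in ESCs. Its membrane partner *Npc1* did not pass, at -0.15 in ESCs and 0.21 in EpiLCs. *Nr1h2*, which encodes LXR-beta, was under Neg in all 3xKD ESC libraries, at -0.56 ± 0.061 (adjusted p = 1.1e-06), short of the fold limit, which it passed without Neg ESCs replicate 3 (-0.62) or 3xKD ESCs replicate 2 (-0.60). In EpiLCs it had -0.14. *Mylip*, an LXR-induced ligase that degrades lipoprotein receptors, had -0.10 in ESCs and 0.56 ± 0.13 in EpiLCs (adjusted p = 0.0018), the latter past the fold limit without Neg EpiLCs replicate 3 (0.67) or 3xKD EpiLCs replicate 2 (0.64).

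*Lpin1*, a phosphatidate phosphatase and a known SREBP target, stood at 47.2, 56.8 and 48.9 CPM in Neg ESCs, 108, 112 and 117 in 3xKD ESCs, 65.8, 73.2 and 72.5 in Neg EpiLCs and 109, 106 and 101 in 3xKD EpiLCs. It rose 2.20-fold in ESCs (log2 1.14 ± 0.062, adjusted p = 4.2e-10), the second largest value of any member. In EpiLCs its 0.58 ± 0.061 (adjusted p = 8.6e-07) missed the fold limit narrowly, and 7 alternatives of scaling, filter, offsets and tool and the fits without 3xKD ESCs replicate 1, Neg EpiLCs replicate 2 or 3, or 3xKD EpiLCs replicate 3 put it past (between 0.58 and 0.71).

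**Figure D2:**
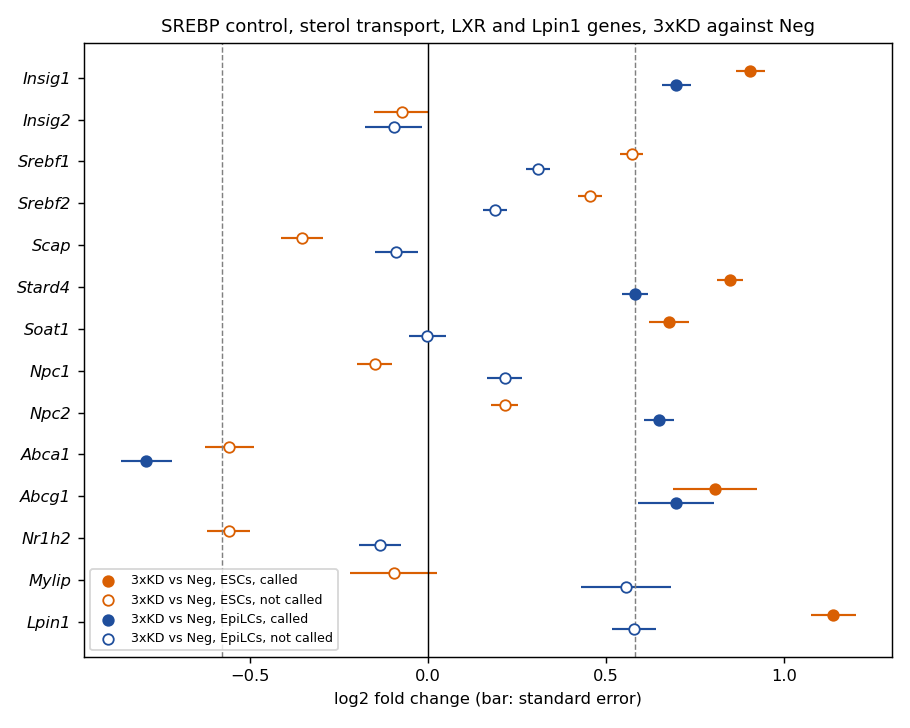
Log2 fold change (x axis, bars are standard errors) of 3xKD against Neg for the 14 members outside synthesis (y axis) in ESCs (orange) and EpiLCs (blue), with filled points for called genes and dashed lines at 0.58 on either side of 0. *Insig1*, *Stard4* and *Abcg1* are filled to the right in both states, and *Abca1* is the one filled point to the left, at -0.79 in EpiLCs.

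**Figure D3:**
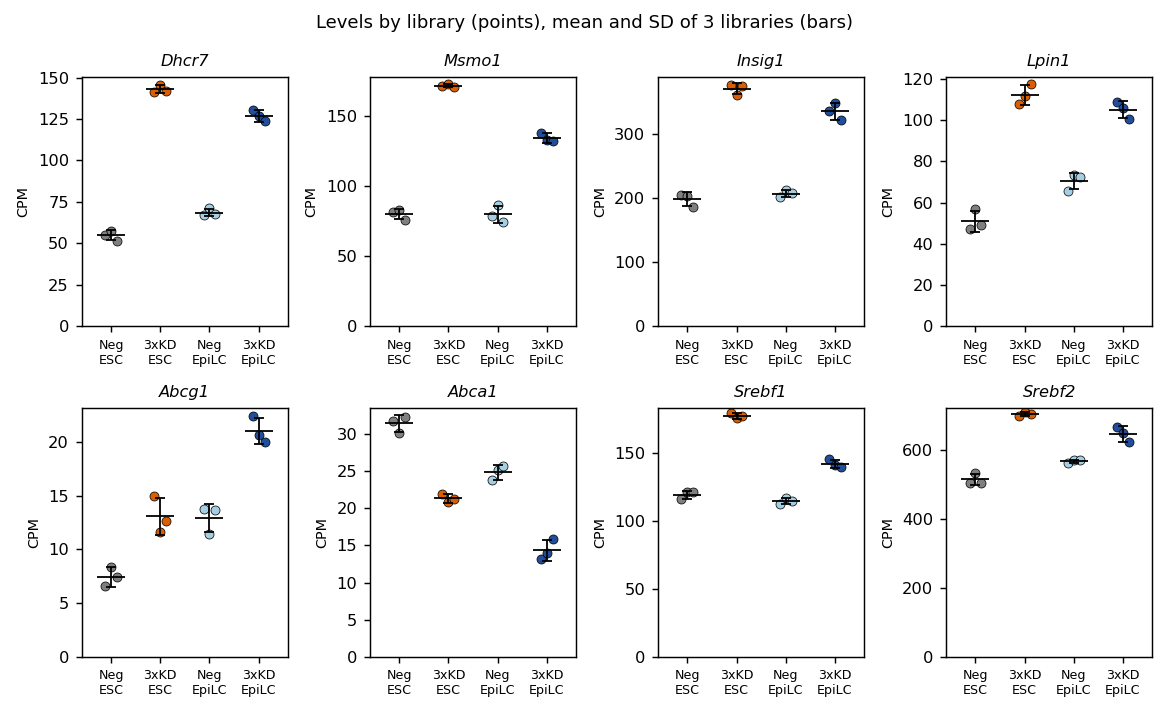
CPM after TMM scaling (y axis, from 0) of 8 members in each library (points) of the 4 groups (x axis), with the mean and SD of 3 libraries as bars. *Dhcr7*, *Msmo1*, *Insig1* and *Lpin1* are higher in every 3xKD library than in any Neg library of the same state, and *Abca1* is lower.

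The neighbouring genes of the pathway were taken from lists chosen in the same way. Of all genes tested, 8.51% were called higher and 6.77% lower in ESCs, and 7.88% and 5.35% in EpiLCs. With the adjusted p alone these shares were 15.6% and 16.0% in ESCs and 14.3% and 15.6% in EpiLCs. Of the 7 lipoprotein receptors, 5 rose in 3xKD ESCs and 3 in 3xKD EpiLCs, with medians of 0.78 and -0.052. With the adjusted p alone, 6 receptors were higher and 1 lower in ESCs, and 3 were higher and 3 lower in EpiLCs. *Vldlr* rose by 1.48 ± 0.12 and 1.42 ± 0.14 (adjusted p = 5.4e-08 and 2.9e-07), *Lrp8* by 1.44 ± 0.12 in ESCs (adjusted p = 3.8e-08), and *Scarb1*, the receptor of high-density lipoprotein, by 1.45 ± 0.050 in EpiLCs (adjusted p = 3.7e-12). Of the 16 fatty acid genes that SREBPs drive, 7 rose in ESCs and 5 in EpiLCs and none was called lower, with medians of 0.55 and 0.27. With the adjusted p alone, 12 of them were higher and 1 lower in ESCs, and 10 were higher and 2 lower in EpiLCs. The desaturase gene *Fads2* rose by 1.13 ± 0.041 and *Mid1ip1*, an activator of acetyl-CoA carboxylase, by 1.01 ± 0.086 in ESCs (adjusted p = 4.2e-12 and 6.2e-08). In EpiLCs *Acss2*, which makes acetyl-CoA from acetate, rose by 0.97 ± 0.061 and *Fads1* by 0.96 ± 0.036 (adjusted p = 2.1e-09 and 9.3e-12).

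The isoprenoid branches, which leave the pathway before squalene, held no gene called higher. Their highest values were 0.578 in ESCs, just under the fold limit, and 0.48 in EpiLCs. Of these 15 genes, 1 fell in ESCs and 2 in EpiLCs, against 6.77% and 5.35% of all genes, with medians of -0.29 and -0.35. With the adjusted p alone, 1 was higher and 9 lower in ESCs, against 15.6% and 16.0% of all genes. The same limit gave 1 higher and 11 lower in EpiLCs, against 14.3% and 15.6%. *Dhdds*, of dolichol synthesis, fell in ESCs by 0.64 on the log2 scale (SE 0.088, adjusted p = 1.6e-05). *Pdss1*, of the coenzyme Q side chain, and *Ggps1*, which makes geranylgeranyl diphosphate, had -0.76 ± 0.066 and -0.73 ± 0.071 in EpiLCs (adjusted p = 9.4e-08 and 3.4e-07).

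Of 16 sterol carriers and ester hydrolases, 4 rose and 1 fell in ESCs, and 4 rose in EpiLCs, with medians of 0.075 and 0.098. *Soat2*, listed here although it is the paralog of the esterifying *Soat1*, rose by 1.45 ± 0.34 and 1.304 ± 0.34 (adjusted p = 0.0021 and 0.0049). Its levels were low, with means from 0.80 to 2.25 CPM in ESCs and from 0.84 to 2.07 CPM in EpiLCs. *Gramd1a* rose by 0.92 ± 0.065 in ESCs and the lysosomal hydrolase gene *Lipa* by 0.76 ± 0.12 in EpiLCs (adjusted p = 7.2e-09 and 6.1e-05). *Stard3*, a late endosomal sterol carrier, fell in ESCs, at -0.74 ± 0.086 (adjusted p = 2.4e-06). Of 9 genes of oxysterol synthesis and LXR partners, 1 rose and 1 fell in ESCs and 2 rose in EpiLCs. Beside both lists, 8.51% of all genes were called higher and 6.77% lower in ESCs, and 7.88% and 5.35% in EpiLCs. *Cyp46a1*, cholesterol 24-hydroxylase, rose by 1.22 ± 0.25 and 2.28 ± 0.25 (adjusted p = 0.00082 and 1.6e-06), from means of 0.836 to 1.96 CPM and of 0.592 to 2.93 CPM. *Cyp27a1* rose by 0.60 ± 0.14 in EpiLCs (adjusted p = 0.0023), and the LXR partner gene *Rxra* fell in ESCs, at -0.58 ± 0.041 (adjusted p = 7.1e-09).

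Whether the 3xKD effect on the members differed between states was tested by the difference of both effects, with a call at an adjusted p under 0.01. The difference was called for 18 of 33 members, 15 with a lower value in EpiLCs and 3 with a higher one, against 5.26% and 4.76% of all genes. Scaled by library size alone, 11 were called, 8 lower and 3 higher, against 3.24% and 5.98% of all genes. With offsets for transcript length 3 were called, *Hmgcs1* and *Idi1* lower and *Npc2* higher, against 1.54% and 1.31% of all genes. Of the values that lost the call there, that of *Dhcr7* was -0.73, of *Soat1* -0.78, of *Lpin1* -0.55 and of *Lss* -0.41, while that of *Srebf1* was -0.10. Over all 33 members, 26 had the larger value in ESCs and 7 in EpiLCs, and the median difference was -0.24 against -0.00088 over all genes.

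In synthesis, 10 of 19 genes had a called difference and each was lower in EpiLCs. The difference (EpiLC minus ESC effect) was -0.49 ± 0.061 for *Dhcr7* (adjusted p = 2.4e-05), -0.48 ± 0.063 for *Idi1* (adjusted p = 4.7e-05) and -0.41 ± 0.064 for *Cyp51* (adjusted p = 0.00026). *Lss* (-0.40), *Nsdhl* (-0.36), *Msmo1* (-0.35), *Hmgcs1* (-0.33), *Fdft1* (-0.29), *Fdps* (-0.24) and *Lbr* (-0.18) followed. The calls of *Nsdhl* and *Lbr* were the least stable, with adjusted p between 0.01 and 0.022 for *Nsdhl* in 6 fits that left out 1 library (Neg ESCs replicate 1 or 3, 3xKD ESCs replicate 2 or 3, Neg EpiLCs replicate 3, 3xKD EpiLCs replicate 1). For *Lbr* it lay between 0.01 and 0.02 in 5 such fits (Neg ESCs replicate 1 or 3, 3xKD ESCs replicate 2 or 3, 3xKD EpiLCs replicate 2). *Idi1* had 0.083 in ESCs and -0.40 in EpiLCs, values on either side of 0.

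Outside synthesis, *Soat1* had the widest called difference, -0.68 ± 0.077 (adjusted p = 1.1e-05), followed by *Lpin1* with -0.56 ± 0.087 (adjusted p = 0.00023). *Srebf1* (-0.26), *Srebf2* (-0.27) and *Stard4* (-0.27) were also lower in EpiLCs. The effect was higher in EpiLCs for *Npc2* by 0.43 ± 0.056 (adjusted p = 4.5e-05), for *Nr1h2* by 0.43 ± 0.085 (adjusted p = 0.002) and for *Npc1* by 0.36 ± 0.068 (adjusted p = 0.0012). The difference was not called for *Insig1* (-0.21 ± 0.058, adjusted p = 0.021), *Mvd* (-0.26 ± 0.072, adjusted p = 0.018), *Tm7sf2* (0.10 ± 0.15, adjusted p = 0.77) or *Abcg1* (-0.11 ± 0.16, adjusted p = 0.73). Without Neg ESCs replicate 2 it was called for *Insig1* (adjusted p = 0.0056), *Mvd* (0.003), *Sqle* (0.002) and *Hsd17b7* (0.0093). It was also called without Neg EpiLCs replicate 1 for *Insig1* (0.0078), without Neg EpiLCs replicate 3 for *Mvd* (0.004) and *Mylip* (0.0089), and without Neg EpiLCs replicate 2 or 3xKD EpiLCs replicate 3 for *Sqle* (0.0023 and 0.0075).

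**Figure D4:**
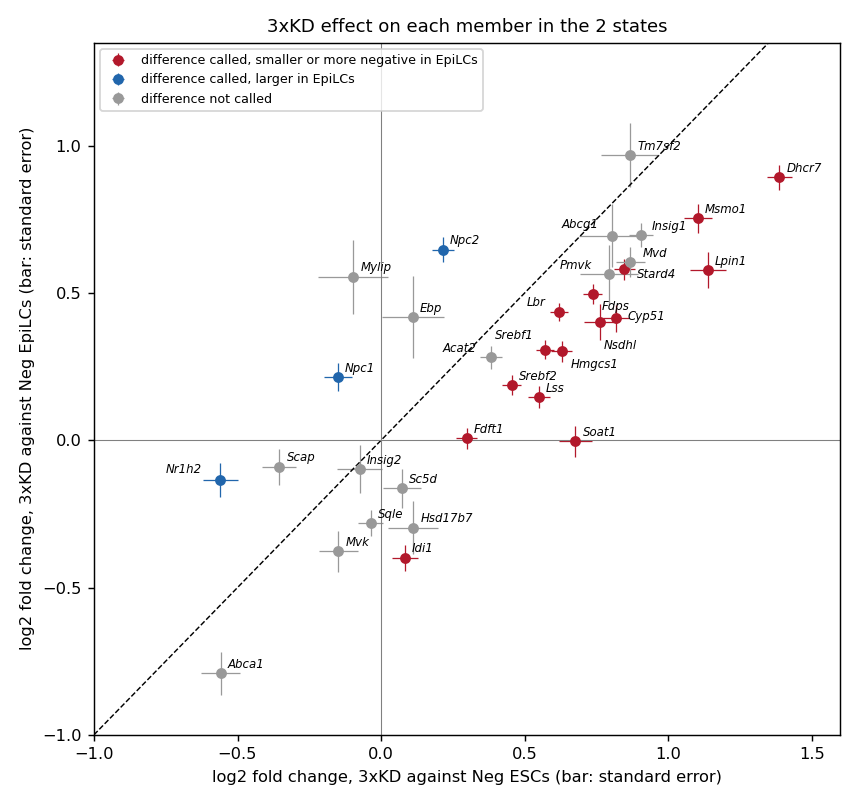
Log2 fold change of 3xKD against Neg in EpiLCs (y axis) and in ESCs (x axis) for the 33 members, with standard errors as bars and a dashed line where both are equal. Most points lie under the line, the 15 red ones with a called lower value in EpiLCs, and the 3 blue ones (*Npc2*, *Npc1*, *Nr1h2*) above it have a called higher value.

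In both states the 3xKD libraries also differed from Neg in state markers, and the part of this in the members' values was not tested. Of 11 naive markers 6 fell in 3xKD ESCs, whose sums ran from 3225 to 3276 CPM against 4708 to 4848 in Neg ESCs, and in EpiLCs 4 rose and 1 fell (522.3 to 545 against 468.5 to 485.4). Of 10 formative markers 8 fell in 3xKD EpiLCs (2196 to 2254 against 3817 to 4232), and in ESCs 2 rose and 3 fell (424 to 440.6 against 494.6 to 504.8). Beside these markers and those that follow, 8.51% of all genes were called higher and 6.77% lower in ESCs, and 7.88% and 5.35% in EpiLCs. Markers of other cell types were summed as well, and none of those tested was at 0 in every library of a group. Several had low counts. Means under 1 CPM were found in a group for 2 to 3 primitive endoderm, 2 to 4 trophoblast and 4 to 5 fibroblast markers. The 10 primitive endoderm markers summed to 27.3 to 31.5 CPM in Neg ESCs, 42.8 to 46.0 in 3xKD ESCs, 37.8 to 44.9 in Neg EpiLCs and 37.9 to 40.1 in 3xKD EpiLCs, with 3 and 1 called higher and 0 and 3 lower in 3xKD. The 8 trophoblast markers summed to 77.9 to 82.2, 95.9 to 111.1, 40.1 to 41.7 and 69.6 to 70.8 CPM in the same order, with 2 and 3 called higher and 1 and 1 lower. The 7 fibroblast markers tested summed to 6.88 to 7.36 CPM, 12.9 to 14.0, 8.81 to 10.3 and 12.7 to 14.0 in that order, with 2 and 1 called higher. The 6 markers of 2-cell-like cells summed to between 451.8 and 525.8 CPM in the first 3 groups and to 956.6 to 997.1 in 3xKD EpiLCs, where 4 were called higher, and they belong to families of near-identical copies whose counts are uncertain. In bulk libraries, a change in the share of a cell type and a change in RNA per cell cannot be told apart.

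From ESCs to EpiLCs the share of members called, both directions together, was near that of all 25453 genes tested in both lines. That set includes many genes with few counts. With the stricter filterByExpr filter of edgeR, which kept 17509 genes, 13.8% were called higher and 15.9% lower in Neg cells. In 3xKD cells these shares were 13.9% and 13.1%, so nearness to all genes depends on the filter. In Neg cells 3 of 33 members rose and 3 fell, against 9.78% and 11.0% of all genes, and the median over members was 0.0097 against 0.011. In 3xKD cells 1 rose and 4 fell, against 9.41% and 9.32%, and the median was -0.17 against 0.011. At the adjusted p alone, 12 members were higher and 8 lower in Neg EpiLCs than in Neg ESCs, against 17.5% and 18.2% of all genes. In 3xKD cells 5 were higher and 17 lower, against 15.9% and 17.9%, and 26 of 33 values lay below 0. These contrasts use the same libraries as those of 3xKD against Neg, so each is given by its own values.

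*Ebp*, the sterol isomerase, had the largest change, from 14.1, 17.0 and 17.1 CPM in Neg ESCs to 3.20, 4.56 and 3.73 in Neg EpiLCs, and from 18.2, 15.9 and 18.2 to 4.84, 5.50 and 4.99 in 3xKD cells. All EpiLC libraries lay far under all ESC libraries, at -2.08 ± 0.13 and -1.77 ± 0.12 (adjusted p = 5.2e-10 and 2.8e-09). *Npc2* fell likewise, with log2 fold changes of -1.61 ± 0.041 and -1.18 ± 0.039 (adjusted p = 6.1e-15 and 3.2e-13). *Tm7sf2* fell with -0.80 ± 0.11 and -0.70 ± 0.099 (adjusted p = 1.5e-05 and 1.8e-05). *Hsd17b7* fell in 3xKD cells with -0.65 ± 0.088 (adjusted p = 1.1e-05; -0.58 and not called with upper-quartile factors) and had -0.24 ± 0.088 in Neg cells.

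*Soat1* rose in Neg cells by 1.15 ± 0.056 (adjusted p = 2.7e-11) and had 0.47 ± 0.053 in 3xKD cells (adjusted p = 1.4e-06), and its EpiLC libraries overlapped between the lines. *Abcg1* rose in both, by 0.79 ± 0.12 and 0.68 ± 0.11 (adjusted p = 2.5e-05 and 4.8e-05), the call in 3xKD cells being lost with offsets for transcript length at a value of 0.71 (adjusted p = 0.08). *Lss* rose in Neg cells by 0.64 ± 0.039 (adjusted p = 6.4e-10) and had 0.24 ± 0.038 in 3xKD cells. Among the uncalled, *Mylip* in Neg cells (-0.55 ± 0.13) passed without Neg ESCs replicate 2 (-0.61) or Neg EpiLCs replicate 3 (-0.63), *Lpin1* in Neg cells (0.47 ± 0.064) without Neg ESCs replicate 2 (0.59), and *Abca1* in 3xKD cells (-0.57 ± 0.072) without 3xKD ESCs replicate 2 (-0.59) or 3xKD EpiLCs replicate 3 (-0.64). The remaining members lay between -0.53 and 0.44 in both lines.

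**Figure D5:**
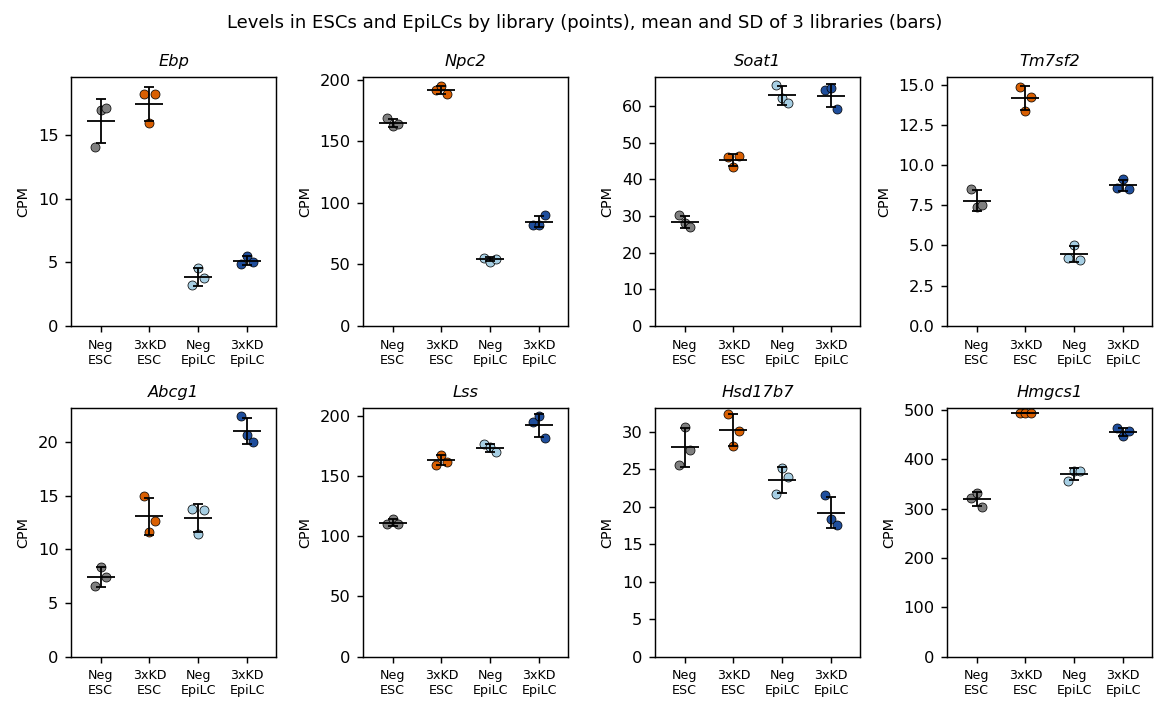
CPM after TMM scaling (y axis, from 0) of 8 members in each library (points) of the 4 groups (x axis), with the mean and SD of 3 libraries as bars. *Ebp* and *Npc2* are lower in all EpiLC than in all ESC libraries, and *Soat1* overlaps between Neg and 3xKD EpiLCs and is apart between the lines in ESCs.

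On the length-scaled TPM, the order of the members was led by the same genes in every group. *Srebf2* had the highest mean of the 33, with 114 ± 26.5, 138 ± 18.01, 148 ± 15.7 and 157 ± 39.8 TPM (± SD, n = 3) in Neg ESCs, 3xKD ESCs, Neg EpiLCs and 3xKD EpiLCs. *Fdps* was second, with 91.0 ± 21.2, 131 ± 17.7, 120.3 ± 4.8 and 146 ± 18.2, and *Hmgcs1* came next, with 74.1 ± 16.9, 109 ± 11.5, 100.4 ± 10.1 and 113 ± 19.0. The libraries of *Srebf2* and *Fdps* overlapped in 3 of the 4 groups and were apart in Neg EpiLCs. At the other end, *Abca1* and *Mylip* had means between 1.301 and 4.193 TPM in every group, and *Abcg1*, the lowest in Neg ESCs, had 1.235 TPM there and up to 5.872 in 3xKD EpiLCs. *Dhcr7* went from rank 15 of the members in Neg ESCs to rank 7 in 3xKD ESCs, and from rank 12 to rank 8 in EpiLCs.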

How the data were processed

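RNA was depleted of ribosomal RNA before directional library preparation, although the labels call the molecule polyA RNA, and 12 single-end libraries were analysed. The authors trimmed reads with Trim Galore 0.6.7, mapped them to GRCm39 with STAR 2.7.9a and deposited estimated counts and TPM per transcript from Salmon 1.10.1. Estimated counts, as deposited, were added up over the transcripts of a gene and then rounded. The authors' TPM, already scaled by transcript length, served only to order genes by level and for transcript shares.

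Genes with at least 10 counts over all libraries (25453) were tested with edgeR 4.0.16 (quasi-likelihood, TMM scaling, R 4.3.3) in 1 fit of 4 groups without a replicate term. Genes were called at a Benjamini-Hochberg adjusted p below 0.01 with a log2 fold change beyond 0.58 in either direction, and for the difference between states the adjusted p alone. Scripts were tested on simulated data. Over all genes together, libraries of a group differed by more than counting noise (chi-square per degree of freedom 2.84 to 16.4 over 12 pairs). That figure was not computed for the members alone, and the part of counting error in their spread was not measured. Alternatives were DESeq2 1.42.0, other scalings and filters, offsets for transcript length, a replicate block, the 2 groups compared alone, another call limit, and leaving out each library.

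The members, gene lists and call rules were chosen with earlier results of these data known. All members were named, with values in every library for those called for 3xKD against Neg in either state and for the SREBP control genes. Of the other lists, the called genes with the largest change were named, at most 2 in each direction and state, among genes averaging at least 1 CPM. Gene positions and starts came from GENCODE vM39, which held 99.3% of the genes tested. The state of each library was taken from its title. A few items, among them 1 gene list and 1 promoter window, are not reported here.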

Additional observations from a re-analysis of the deposited data

Results flagged for a closer look

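The effect of the 3xKD line differed between ESCs and EpiLCs for 18 members by the test of the difference itself in edgeR (adjusted p under 0.01). Of all genes, 5.26% were called lower and 4.76% higher by this test. With offsets for transcript length, *Hmgcs1*, *Idi1* and *Npc2* alone kept the call, and 1.54% of all genes were called lower and 1.31% higher. The log2 difference (EpiLC effect minus ESC effect) was lower for the mevalonate genes *Idi1* (-0.48), *Hmgcs1* (-0.33) and *Fdps* (-0.24). It was also lower for *Dhcr7* (-0.49), *Cyp51* (-0.41), *Lss* (-0.40), *Nsdhl* (-0.36), *Msmo1* (-0.35), *Fdft1* (-0.29) and *Lbr* (-0.18), between squalene and cholesterol. Outside synthesis it was lower for *Soat1* (-0.68), *Lpin1* (-0.56), *Srebf2* (-0.27), *Stard4* (-0.27) and *Srebf1* (-0.26). It was higher for *Npc2* (0.43), *Nr1h2* (0.43) and *Npc1* (0.36).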

How the results depend on the processing

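With an adjusted p under 0.05 and no fold limit, called members numbered 25 and 27 for 3xKD against Neg in ESCs and EpiLCs, and 22 and 28 for EpiLCs against ESCs in Neg and 3xKD cells. Of all genes, 20.1% were then higher and 19.8% lower in ESCs, 19.0% and 19.1% in EpiLCs, 21.9% and 22.2% in the change of state of Neg cells and 20.6% and 22.0% in that of 3xKD cells. The difference between states, with 18 members called, had 11 with library size alone and 3 with offsets for transcript length. Leaving out each library in turn gave 15 to 17 members in ESCs, 8 to 10 in EpiLCs, 6 to 8 and 5 to 6 for the change of state in Neg and 3xKD cells, and 16 to 22 for the difference. In these fits 7.50% to 9.29% of all genes were higher and 5.74% to 6.87% lower in ESCs. In EpiLCs the shares were 6.95% to 8.03% and 4.76% to 5.57%. For the change of state they were 8.91% to 10.6% and 9.83% to 11.2% in Neg cells. In 3xKD cells they were 8.56% to 9.60% and 8.73% to 9.44%. For the difference, 3.59% to 4.58% were higher and 4.27% to 6.48% lower. Offsets for transcript length turned the direction of *Scap* in ESCs (0.028) and EpiLCs (0.61, called), *Lss* in EpiLCs (-0.0049), *Abca1* from Neg ESCs to EpiLCs (0.59) and *Cyp51* from 3xKD ESCs to EpiLCs (0.027), and the cause was not tested. Over the 127 results of single members called under at least 1 setting, 2582 alternative values kept direction and call, 49 lost the call, 134 gained it and 5 turned. Of 38 results called under no setting, 15 changed sign under some alternative, among them *Hsd17b7* in ESCs (-0.14) and *Nr1h2* in EpiLCs (0.10) with offsets for transcript length, and their reported values lay within 0.135 of 0. Replicate numbers did not pair the libraries. The correlation of deviations ran from -0.135 to 0.0999 over 18 pairs with the same number and from -0.146 to 0.181 over the others, and 3 of 12 libraries were closest to their own number. With a replicate block the members called were 15, 9, 6 and 5, and 16 for the difference, where *Lbr* and *Nsdhl* had adjusted p of 0.015 and 0.012. With this block 8.27% of all genes were higher and 6.63% lower in ESCs, and 7.62% and 5.25% in EpiLCs. The shares higher and lower were 9.51% and 10.8% for the change of state in Neg cells and 9.10% and 9.22% in 3xKD cells. For the difference they were 4.39% and 4.73%. No other scaling moved the median of all genes by over 0.0823 (log2). Depth limits *Ebp* in EpiLCs, *Tm7sf2*, *Mylip* and *Abcg1*, the members with the fewest counts.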
